A study of Mus musculus with 2 samples.

Results

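Collagen genes were examined in inguinal white adipose tissue, a subcutaneous depot at the groin. A gene was included when its probe set carried exactly 1 gene symbol and that symbol had the form of a collagen alpha chain (Col, a type number, a, a chain number). This gave 44 genes, read by 46 probe sets, out of 19938 named genes on the array. They were grouped by structure into 11 fibrillar chains (types 1, 2, 3, 5, 11, 24 and 27), 8 basement membrane chains (types 4, 15 and 18), 6 microfibril chains (type 6) and 19 others. Membership and grouping used names only and no measured value. The probe set that stood for a gene with more than 1 was that of highest mean intensity, which concerned 2 collagens.

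All mice were male, of the C57BL/6J background, and lacked apolipoprotein E, a lipoprotein ligand whose loss raises blood cholesterol. One group carried that deletion alone (Ucp1 intact, labelled ApoE-KO), and the other was Ucp1-/-;ApoE-/- (labelled DKO), so it also lacked uncoupling protein 1, the mitochondrial carrier that lets brown and beige adipocytes turn fuel into heat. Littermates lived at 23 °C on standard chow until, at 9 weeks of age, they were switched to a high-fat diet that lasted 9 weeks. RNA of 3 mice per genotype was pooled and hybridised to 1 Affymetrix whole-transcript array per genotype, giving 2 arrays in all. Variation among mice is hidden by the pooling, so differences are given by size, without replicate checks or p-values.

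Collagens are secreted proteins built from alpha chains in which glycine recurs so that the chains can wind into a triple helix. Fibrillar types assemble into the load-bearing fibres of connective tissue, type 4 forms the sheet-like network of basement membranes, and type 6 forms beaded microfibrils between them. In fat, fibroblasts, progenitors and adipocytes make collagen, each adipocyte is wrapped in a basement membrane, and the collagen scaffold is known to accumulate in obesity. In bulk tissue, fewer cells of a type and less RNA per cell cannot be told apart.

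Differences below are log2 intensities, DKO label minus ApoE-KO label, so a negative value means less signal in the array labelled DKO. The Ucp1 probe set read 2230 on the array labelled DKO and 219 on that labelled ApoE-KO, which goes against the labels if its probes lie within the disrupted part. Their position is not given in any source used here, and every direction below rests on the labels as given. Apoe, disrupted in both groups, read 502 and 589. Markers of mature adipocytes were high in both arrays (lowest intensity 1486 over 7 genes), with a median difference of 0.05. Skeletal muscle markers stood apart: all 12 were lower in the array labelled DKO and summed to 1824 there against 30592 in the other, and their median difference was -3.98. An expression floor was set at an intensity of 197, the median over named probe sets. It is a rule of this work and not a detection limit, and 9891 genes lay on or above it. Over both arrays the deposited intensities ranged from 3.55 to 23636, with medians of 152 and 158, and the number of arrays limits the precision.

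The 13 collagens with the highest signal in this depot were lower in the array labelled DKO, by less than 2-fold each. The others lay on both sides of 0, from -0.31 (Col18a1) to 0.29 (Col27a1). Of the 44 genes, 29 were lower and 15 higher, where 52.1% of all genes were lower, and their median difference was -0.08, against -0.01 over all 19938 genes. Past 1.5-fold, 7 collagens were lower and 0 higher. These 7 were among the 27 collagens on or above the floor, of which 21 were lower by any amount (51.4% of all genes there), so 25.9% of those were called lower, where 3.73% of all genes on or above the floor were called lower and 7.57% higher. The 7 genes were Col3a1, Col14a1, Col6a3, Col1a2, Col5a3, Col6a2 and Col6a1. No collagen was 2-fold lower or higher, where 0.698% and 2.79% of all genes on or above the floor were. At 1.3-fold, 12 collagens were lower, where 9.92% of all genes on or above the floor were. The genes nearest to the 1.5-fold line from outside it were Col15a1 (-0.57) and Col5a2 (-0.52).

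**Figure D1:**
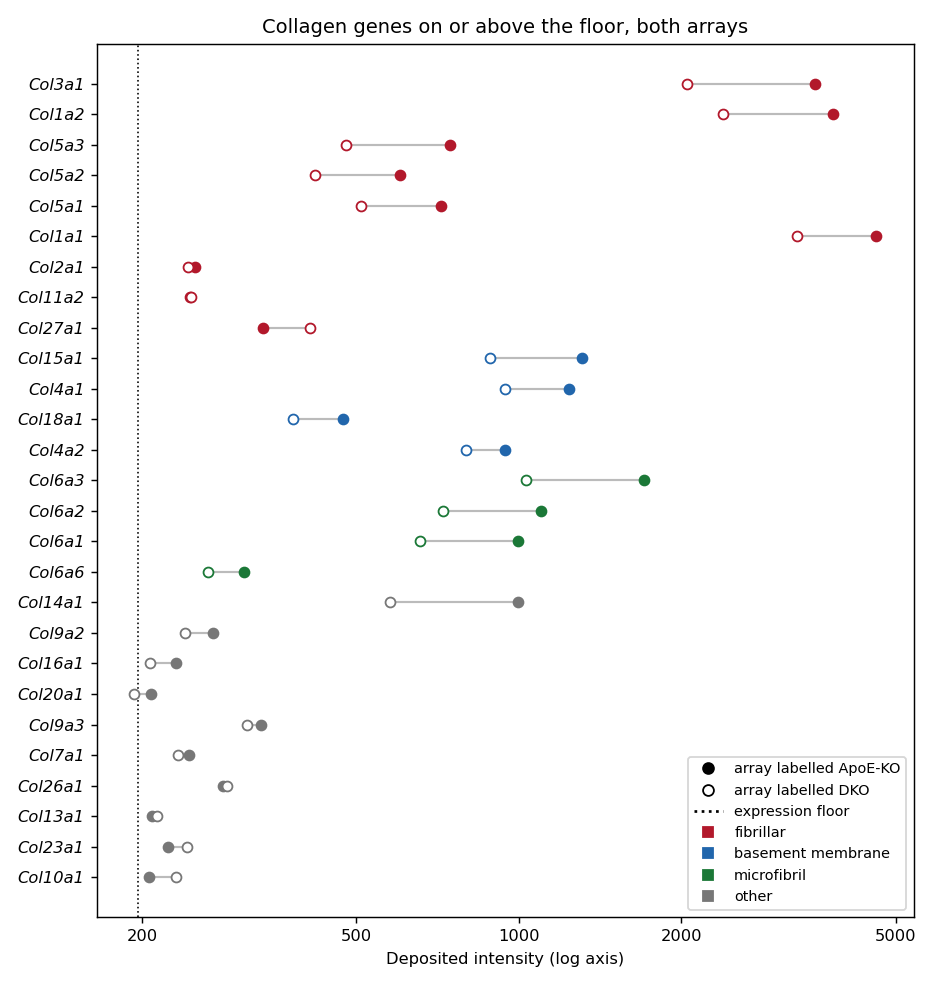
Deposited intensity (log axis) of the 27 collagen genes on or above the expression floor, with a filled point for the array labelled ApoE-KO and an open point for the array labelled DKO, coloured by structural group. The dotted line is the floor (197), and a reader should see the open point to the left of the filled point in 21 of the 27 genes, with the widest gaps for Col3a1 and Col14a1.

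Sequence upstream of the start site is shown for 4 of these 7 genes, a set chosen to cover both structural groups that hold most of them. RefSeq windows (GRCm38.p6) were matched for 35 of the 44 collagens and for 6 of the 7, by symbol. Each line gives the 250 bases before the annotated start, 5′ to 3′ on the strand of the gene, and capitals mark matches on either strand to the CCAAT box, to the TATA box letters TATAAA and to the GC box letters GGGCGG. The windows lie at chr1:45311288-45311537 (plus strand, Col3a1), chr6:4505368-4505617 (plus strand, Col1a2), chr9:20815068-20815317 (minus strand, Col5a3) and chr10:76726045-76726294 (minus strand, Col6a1).
Col3a1: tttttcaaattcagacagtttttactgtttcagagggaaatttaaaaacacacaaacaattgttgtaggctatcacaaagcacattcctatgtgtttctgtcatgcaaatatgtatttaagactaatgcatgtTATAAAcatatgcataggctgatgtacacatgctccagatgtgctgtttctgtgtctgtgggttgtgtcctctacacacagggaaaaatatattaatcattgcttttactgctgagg
Col1a2: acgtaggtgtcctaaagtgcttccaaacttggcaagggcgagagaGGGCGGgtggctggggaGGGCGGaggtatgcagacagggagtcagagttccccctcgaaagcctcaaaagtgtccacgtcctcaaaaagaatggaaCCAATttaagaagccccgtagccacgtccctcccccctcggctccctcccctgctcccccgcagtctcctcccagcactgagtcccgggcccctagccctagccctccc
Col5a3: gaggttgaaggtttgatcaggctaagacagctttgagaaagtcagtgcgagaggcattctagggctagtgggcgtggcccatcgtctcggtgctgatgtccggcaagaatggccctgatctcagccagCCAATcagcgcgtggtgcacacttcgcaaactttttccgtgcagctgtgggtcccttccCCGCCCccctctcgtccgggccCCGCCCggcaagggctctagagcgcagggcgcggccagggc
Col6a1: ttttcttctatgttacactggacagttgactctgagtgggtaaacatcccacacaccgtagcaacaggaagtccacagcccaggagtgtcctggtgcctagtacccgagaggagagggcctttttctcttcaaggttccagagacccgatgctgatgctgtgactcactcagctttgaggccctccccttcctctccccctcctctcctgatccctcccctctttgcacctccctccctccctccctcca
The 4 windows had no motif in common. Col1a2 and Col5a3 each held 1 CCAAT, at 109 and 122 bases before the start, and 2 copies of GGGCGG, which lay on the opposite strand in Col5a3. Col3a1 held a TATAAA at 117 bases, and Col6a1 held none of the 3 motifs. CCAAT was present in 2 of the 6 matched lower collagens, in 13 of the 35 matched collagens (37.1%) and in 37.5% of all 27025 genes with a window. TATAAA was present in 1 of the 6, in 5 of the 35 (14.3%) and in 14.3% of all genes. GGGCGG was present in 3 of the 6, in 21 of the 35 (60%) and in 35.4% of all genes, which include genes of noncoding RNA. A match is a description of these letters and not a binding site.

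Among the fibrillar collagens, the chains of types 1, 3 and 5, which build the mixed fibrils of soft tissue, were all lower in the array labelled DKO. The 11 chains had a median of -0.49, and 9 of them lay on or above the floor. Col3a1, the single chain of the type 3 homotrimer found in extensible tissues, read 2050 on the array labelled DKO and 3540 on that labelled ApoE-KO. Its difference was -0.79, or 1.73-fold lower, and 1.304% of genes on or above the floor had a lower value. Col1a2 and Col1a1 encode the chains of type 1 collagen, the main fibre-forming protein of connective tissue. Col1a2 read 2395 and 3822 in the arrays labelled DKO and ApoE-KO, a difference of -0.67. Col1a1 read 3286 and 4605, a difference of -0.49, so the partner chains of type 1 differed from each other by 0.19. The fibrillar chains past 1.5-fold were thus Col3a1, Col1a2 and Col5a3, and Col1a1 stayed inside it at 1.40-fold.

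Type 5 collagen starts fibrils and limits their diameter. Its 3 chains lay within 0.15 of each other. Col5a3 read 478 on the array labelled DKO and 747 on that labelled ApoE-KO (-0.64). Col5a2 read 419 and 603 (-0.52), and Col5a1 read 511 and 717 (-0.49). All 3 intensities were lower in the array labelled DKO, and only Col5a3 passed 1.5-fold. The remaining fibrillar chains did not follow. Col2a1, the main collagen of cartilage, read 244 and 251 (-0.04). Col11a2, a partner of type 2 fibrils, read 247 and 245 (0.01). Col27a1, a minor fibrillar chain found in cartilage, read 410 on the array labelled DKO and 336 on that labelled ApoE-KO (0.29), the highest difference of the 44 collagens. Col11a1 (174 and 175) and Col24a1 (149 and 148) lay below the floor in both arrays, with differences of -0.01 and 0.01.

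**Figure D2:**
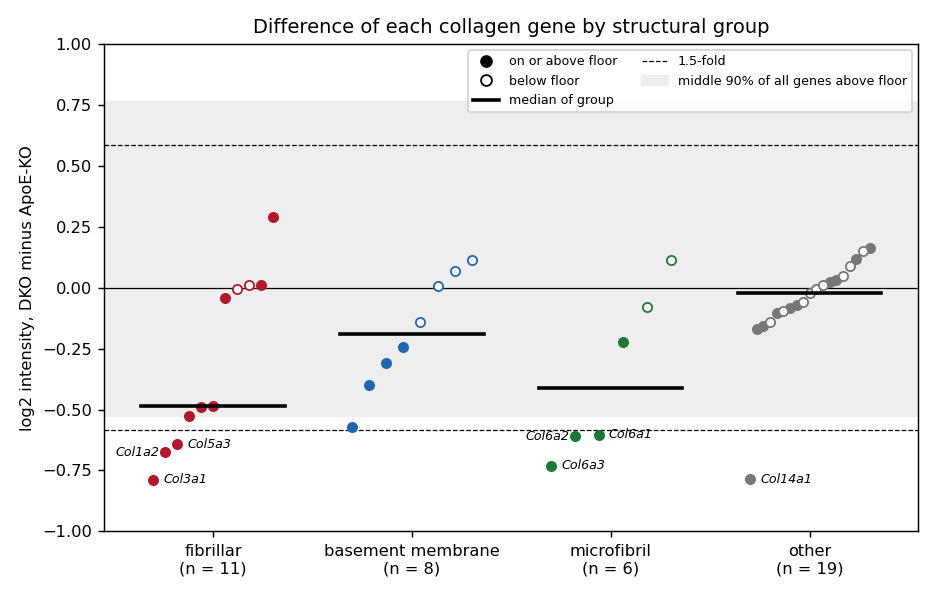
Difference in log2 intensity (array labelled DKO minus array labelled ApoE-KO) of each of the 44 collagen genes by structural group; filled points lie on or above the floor, open points below it, thick bars are group medians, dashed lines mark 1.5-fold, and the grey band holds the middle 90% of all genes on or above the floor (-0.52 to 0.76). The 7 named genes lie under the lower dashed line, and all open points lie between -0.14 and 0.15.

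Type 6 collagen surrounds adipocytes, and the end of its alpha 3 chain is released in fat as the fragment endotrophin. The chains of the classic heterotrimer, Col6a1, Col6a2 and Col6a3, were all past 1.5-fold lower and lay within 0.13 of each other. Col6a3 read 1030 on the array labelled DKO and 1708 on that labelled ApoE-KO, 1.66-fold less (-0.73). Col6a2 read 722 and 1101 (-0.61), and Col6a1 read 656 and 997 (-0.60). Col6a1 and Col6a2 are direct neighbours on chromosome 10, and their differences were 0.01 apart. These 2 genes were close to the line: they stayed past 1.5-fold as deposited and under quantile normalization (-0.64 and -0.65), and came short of it under median centring (-0.55 and -0.56), loess (-0.58 and -0.58) and an offset of 50 before the logarithm (-0.57 and -0.58). The count of lower collagens was 8 under quantile normalization (3.83% of all genes on or above the floor) and 5 under each of those last 3 settings, where 2.85%, 3.04% and 2.84% of all genes on or above the floor were called lower.

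The newer type 6 chains, which can stand in for the alpha 3 chain, differed less. Col6a6 read 265 and 309 (-0.22). Col6a4 (120 and 127, -0.08) and Col6a5 (187 and 172, 0.12) lay below the floor in both arrays. Of the collagens, 2 had a second probe set. In Col6a5 it had the opposite sign (84 and 98, -0.23), so its direction depends on the probe set, and in Col6a6 it had the same sign (76 and 98, -0.37). Over all 6 chains the median was -0.41.

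Of the 8 basement membrane chains, the 4 on or above the floor were lower and 0 passed 1.5-fold; over all 8, 5 were lower and 3 higher. Col15a1, which links basement membranes to the fibrils around them, read 884 on the array labelled DKO and 1313 on that labelled ApoE-KO (-0.57). It came nearest to the line and passed it under quantile normalization (-0.61). Col4a1 and Col4a2, neighbours on chromosome 8 that encode the main type 4 network, read 941 and 1241 (-0.40) and 799 and 944 (-0.24). Col18a1, whose end is released as the angiogenesis inhibitor endostatin, read 382 and 472 (-0.31). In each of these 4 genes the array labelled ApoE-KO was the higher. The type 4 chains of kidney, lung and other specialised membranes, Col4a3 to Col4a6, all lay below the floor in both arrays. They read 179 and 170 (Col4a3), 175 and 175 (Col4a4), 167 and 184 (Col4a5) and 104 and 96 (Col4a6), with differences from -0.14 to 0.11. The median of all 8 chains was -0.19.

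Outside these groups, Col14a1 was the single chain past 1.5-fold. It encodes a fibril-associated collagen that sits on the surface of type 1 fibrils, and it read 578 on the array labelled DKO and 996 on that labelled ApoE-KO (-0.79, or 1.72-fold lower). The 18 other chains of this group lay between -0.17 and 0.16. The fibril-associated class, 9 genes with Col14a1, had 8 lower and 1 higher. It held Col9a1, Col9a2 and Col9a3, the type 9 chains that decorate cartilage fibrils, with differences from -0.17 to -0.09, and Col16a1 (207 and 231, -0.16). Col12a1, a close relative of Col14a1, lay below the floor at 171 and 170 (0.01). Col20a1 (194 and 208, -0.11), also fibril-associated, was the 1 gene with an intensity above the floor in a single array. Col22a1, found at the junction of muscle and tendon, lay below the floor at 181 and 194 (-0.10), and Col19a1 at 104 and 108 (-0.06).

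The transmembrane collagens were all slightly higher in the array labelled DKO, 4 of 4, by 0.03 to 0.15. Col13a1, a component of the neuromuscular junction, read 213 and 209 (0.03), and Col23a1 read 243 and 224 (0.12). Col25a1 (134 and 129) and Col17a1, which anchors basal keratinocytes (154 and 139), lay below the floor. Differences of this size move with the scaling: with median centring, which moved the median of all genes from -0.01 to 0.04, 25 of the 44 collagens were lower in place of 29. The network-forming chains Col8a1, Col8a2 and Col10a1 lay between -0.02 and 0.16. Col7a1, the anchoring fibril of skin, Col26a1 and Col28a1 lay between -0.07 and 0.03.

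Among the collagens, the genes of higher signal had the more negative differences. The 13 collagens on or above percentile 75 of intensity (479) were all lower in the array labelled DKO, between -0.79 and -0.24, with a median of -0.60. Of the 4857 genes in that range, 49.1% were lower and their median was 0.00. The 14 collagens between the floor and percentile 75 had a median of -0.06, with 8 of 14 lower against 53.6% of all genes there. The 17 below the floor had a median of 0.01, with 8 of 17 lower against 52.9%. Across the 44 collagens, mean log2 intensity and the signed difference had a Pearson correlation of -0.82 and a Spearman correlation of -0.69, and across all genes 0.06 and 0.02. In a signed correlation higher and lower genes cancel, so the values for all genes do not describe the size of differences. Of all genes, 272 of 10047 below the floor passed 1.5-fold in either direction. Of the 9891 on or above it, 369 were lower and 749 higher past 1.5-fold. All points come from the same pair of arrays, so these are descriptions. The 13 genes were the chains Col1a1 and Col1a2, Col3a1, all 3 of type 5, Col6a1 to Col6a3, Col4a1 and Col4a2, Col14a1 and Col15a1.

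**Figure D3:**
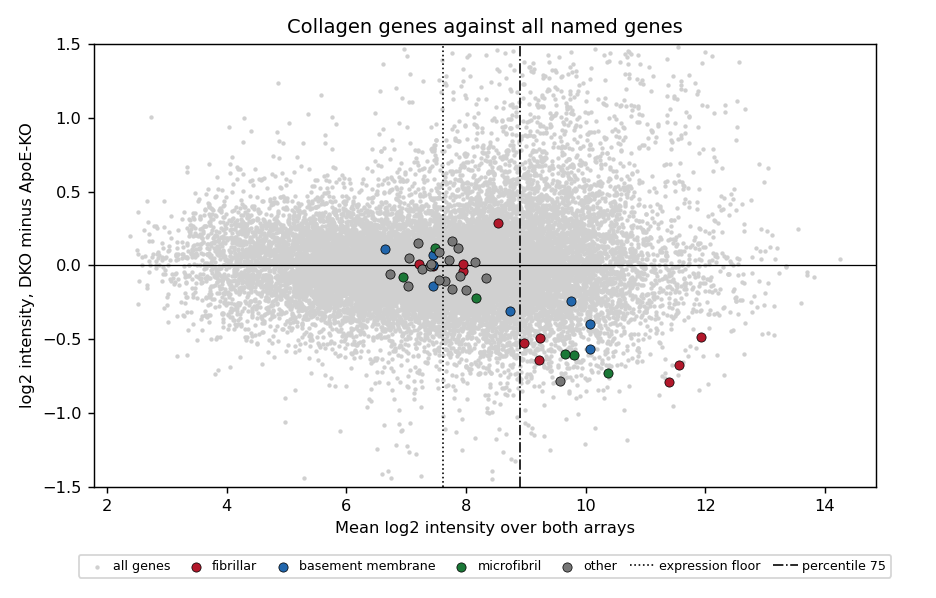
Mean log2 intensity over both arrays (x axis) against the difference in log2 intensity, DKO minus ApoE-KO by label (y axis), for all named genes (grey; 130 of 19938 lie beyond the limits of the y axis at 1.5 and are not drawn) and the 44 collagens (coloured by group). The vertical lines are the floor and percentile 75, and all 13 collagens right of the second line lie below 0.

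The gap between the highest and lowest difference of chains that share a trimer ranged from 0.01 to 0.25. It was 0.19 for type 1, 0.16 for Col4a1 and Col4a2, 0.15 for type 5 and 0.13 for Col6a1 to Col6a3, sets whose members all lay above the floor. It was 0.21 for Col4a3 to Col4a5 and 0.25 for Col4a5 and Col4a6, which all lay below the floor. Types 8, 9 and 11 had gaps of 0.11, 0.08 and 0.01. Neighbouring collagen genes that do not share a trimer were 0.08 to 0.34 apart. Col9a1 and Col19a1, neighbours on chromosome 1, were 0.08 apart, and Col3a1 and Col5a2, on the same chromosome, were 0.26 apart. Col6a1 and Col18a1, with 2 protein-coding genes between them on chromosome 10, were 0.29 apart. On chromosome 9, Col6a6 and Col6a5 were 0.34 apart and Col6a5 and Col6a4 0.19. The closeness of partners and neighbours was not tested.

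Enzymes and chaperones that build collagen in the endoplasmic reticulum were centred near 0. The median of 21 measured genes was -0.01. Of the 17 on or above the floor, 0 were 1.5-fold lower and 1 was higher, where 3.73% of all genes on or above the floor were lower and 7.57% higher. A single call is near that background and is given only as a value. It was Tmem38b, a potassium channel of the endoplasmic reticulum needed for normal collagen assembly, at 636 on the array labelled DKO and 355 on that labelled ApoE-KO (0.84). Some members were singled out after their values were seen. Serpinh1, the collagen-specific chaperone HSP47, read 563 and 598 (-0.09). The prolyl hydroxylase genes P4ha1 (522 and 588, -0.17) and P4hb (2065 and 2603, -0.33) and the lysyl hydroxylase gene Plod1 (803 and 728, 0.14) also lay inside 1.5-fold. Creb3l1, a transcription factor that drives type 1 collagen genes in bone, came nearest to the lower line at 347 and 516 (-0.57).

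Genes that process, crosslink and organise collagen outside the cell had medians below 0. Counts past 1.5-fold in these lists are over members on or above the floor and stand beside the same 3.73% lower and 7.57% higher of all genes there. The 11 measured processing and crosslinking genes had a median of -0.20, and 0 of 7 on or above the floor passed 1.5-fold in either direction. The 12 organisers of fibrils had a median of -0.31, while 10 reached the floor, 4 of them lower past 1.5-fold and 0 higher. Osteoglycin (Ogn), a small proteoglycan that binds fibrils, read 626 on the array labelled DKO and 1140 on that labelled ApoE-KO (-0.86). Fibronectin (Fn1), on which collagen assembles, read 2849 and 5129 (-0.85). Thrombospondin 2 (Thbs2) read 421 and 707 (-0.75), and tenascin X (Tnxb), which bridges fibrils, read 1218 and 1934 (-0.67). All 4 were higher in the array labelled ApoE-KO, with differences from -0.86 to -0.67.

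Partners of the collagens in basement membranes had a median of -0.28 over 15 measured genes. Of these, 12 reached the floor, and 3 of the 12 were lower past 1.5-fold and 0 higher, beside 3.73% and 7.57% of all genes. These were the nidogen genes Nid2 (446 and 717, -0.69) and Nid1 (2214 and 3534, -0.67), which tie laminin to type 4 collagen, and Lama2, a laminin chain of muscle and nerve (549 and 864, -0.65). The 11 genes of collagen breakdown and its inhibitors had a median of -0.33, and of 8 on or above the floor 1 was lower past 1.5-fold and 0 higher, a single call against a background of 3.73%. It was Timp2, an inhibitor of metalloproteinases (1972 and 3350, -0.76). The 11 collagen receptors had a median of -0.26, and of 7 on or above the floor 2 were lower past 1.5-fold and 0 higher, against the same background. These were Antxr1, which binds type 6 collagen (455 and 724, -0.67), and Ddr2, the receptor kinase for fibrillar collagens (784 and 1222, -0.64). Of 11 measured genes of fibrogenic signalling around TGF-beta and PDGF, 10 lay on or above the floor and 0 of these passed 1.5-fold either way, and the median was -0.17.

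**Figure D4:**
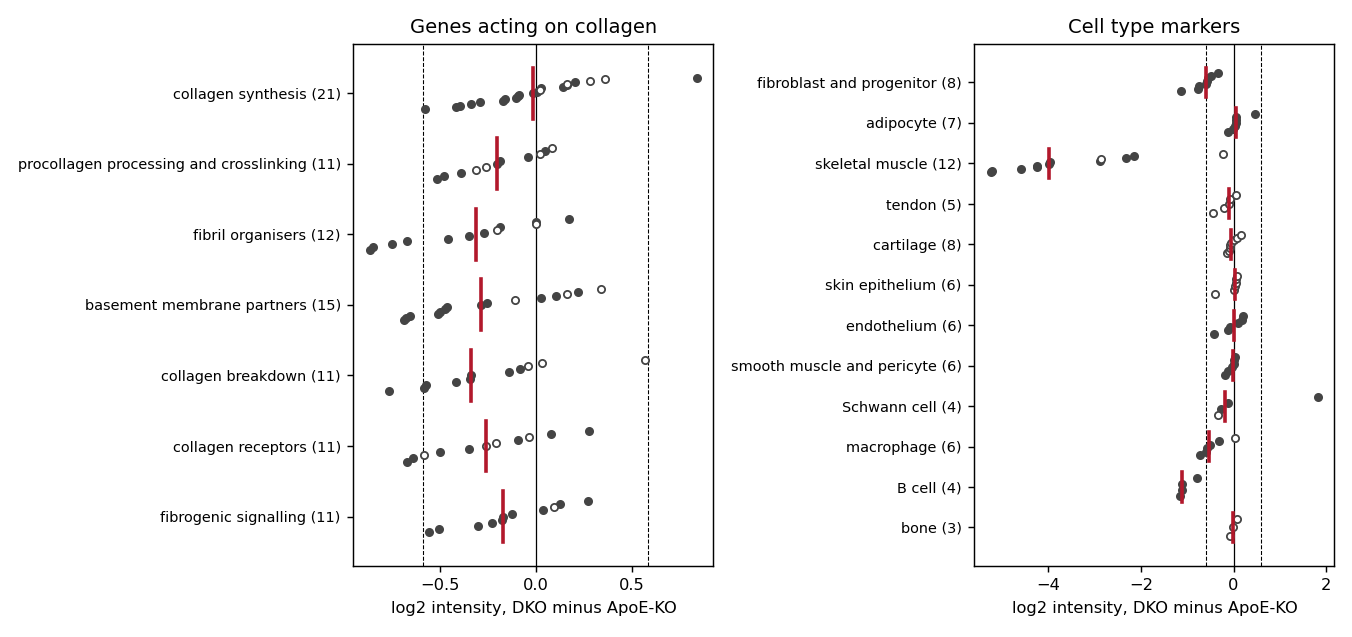
Difference in log2 intensity (DKO minus ApoE-KO by label) of each measured member of 7 lists of genes that act on collagen (left) and 12 lists of cell type markers (right, wider axis); filled points lie on or above the floor, open points below it, red bars are list medians and dashed lines mark 1.5-fold. The synthesis list is centred near 0 (-0.01), fibroblast and progenitor markers lie at -0.59 and skeletal muscle markers at -3.98.

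Markers of collagen-producing and other cells were read beside these values. Their counts past 1.5-fold stand beside 3.73% lower and 7.57% higher of all genes on or above the floor. All 8 measured fibroblast and progenitor markers were lower under the DKO label, and their median was -0.59. The median of the collagens was -0.60 for the 13 of highest signal, -0.24 for the 27 on or above the floor and -0.08 for all 44. Past 1.5-fold were 4 of the 8, Pi16 (366 and 803, -1.13) and Dpp4 (817 and 1392, -0.77), both markers of interstitial progenitors, Cd55 (752 and 1262, -0.75) and Sema3c (461 and 698, -0.60). The summed intensity of all 8 markers was 5312 on the array labelled DKO and 8319 on that labelled ApoE-KO, 1.57-fold lower. Macrophage markers had a median of -0.54 over 6 genes and summed to 4234 and 6230, with Cd163 (-0.72) and Csf1r (-0.61) past 1.5-fold. B cell markers had a median of -1.11 over 4 genes and summed to 2008 and 4122, with Ms4a1 (-1.16), Cr2 (-1.11), Cd79a (-1.10) and Cd79b (-0.79) all past 1.5-fold. Of the 4 measured Schwann cell markers (median -0.19), 3 were lower, 0 of them past 1.5-fold. The remaining one, S100b, was past 1.5-fold higher, at 429 on the array labelled DKO and 121 on that labelled ApoE-KO (1.83). Endothelial markers (median 0.02 over 6 genes) and smooth muscle and pericyte markers (-0.01 over 6) differed little, and no member of either passed 1.5-fold. The part of fibroblast, immune and muscle RNA in the collagen differences was not tested.

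Markers of cartilage, tendon, bone and skin epithelium gave little signal. No list covered the connective tissue of skin, and whether the dissection carried other tissue along was not tested. All 8 cartilage, 5 tendon, 6 skin epithelium and 3 measured bone markers lay below the floor intensity in both arrays. Their medians were -0.06, -0.10, 0.04 and -0.02. Col22a1 and Col25a1, both tied to skeletal muscle, lay below the floor in both arrays. Col13a1, also tied to it, was just above the floor. The differences of these low-signal genes ran from -0.10 to 0.05. What muscle RNA gave to the collagens of higher signal was not tested. The muscle markers were 16.8-fold lower in summed intensity in the array labelled DKO. Of the 10 on or above the floor, all were past 1.5-fold lower, where 3.73% of all genes there were lower. The floor acts on the mean of both arrays, so a gene can pass it through the array where it is high. This count is therefore partly built in, and no conclusion is drawn from it. The largest differences were those of Atp2a1 (156 and 5900, -5.25), Myh4 (116 and 4317, -5.22) and Tnnt3 (178 and 4320, -4.60). Next came Ttn (114 and 2171, -4.25), Pvalb (100 and 1899, -4.24) and Acta1 (376 and 5998, -3.99). All of these but Acta1 read below the floor intensity of 197 under the DKO label, where low signals cannot be told from background, so their exact size is uncertain.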

How the data were processed

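The authors deposited 1 linear intensity per probe set and array for 35557 probe sets. How these intensities were scanned, background-corrected, summarised over probes and scaled is not given in any source used here. The column medians were 152 (DKO label) and 158 (ApoE-KO label), which does not show how the arrays were scaled. Of the probe sets, 21789 had 1 gene symbol in the platform annotation, 1621 with several were not used, and 12147 carried no name here. A gene read by more than 1 probe set was represented by that of highest mean intensity. All 44 collagens matched RefSeq (GRCm38.p6) by Entrez identifier, and 0 symbols changed.

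Log2 was taken with no pseudocount, and the ApoE-KO value was subtracted from the DKO value. With 1 array per group nothing was tested, and lists were described by their median and by counts past 1.5-fold among genes on or above the floor. Promoter motifs were searched as plain strings. The calculation was tested on simulated data. The collagens, the 1.5-fold threshold and the other lists were chosen with earlier results of these data known. All collagens were to be named, and from each other list the members past 1.5-fold on or above the floor, up to 6. Some genes of the lists are not analysed here, and Pdgfra, Lum, Fmod and Adipoq stand in 2 lists each. Python 3.11.15, pandas 2.3.3 and statsmodels 0.14.6 were used.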

Additional observations from a re-analysis of the deposited data

How the results depend on the processing

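The spread between mice was not measured, and low signals cannot be told from background, which limits the 17 collagens below the floor most. No paired analysis was possible because each genotype had 1 array. Of the 44 single differences, all stayed within 0.1 under quantile normalization, median centring, loess (span 0.4) and an offset of 50. The mean of probe sets moved 1 of them (Col6a5, to -0.06), and setting intensities under the floor to the floor moved 5, all toward 0. The count of collagens lower past 1.5-fold was 7. It stayed between 5 and 8 under other scalings, offset, probe set and floor choices, and became 12 at 1.3-fold (9.92% of genes on or above the floor) and 0 at 2-fold. The count of higher collagens was 0 in every setting run. With members on or above the floor alone, medians moved to -0.24 for all collagens, -0.35 for basement membrane and -0.61 for microfibril chains. Means of members gave -0.18 for all collagens and -0.30 for fibrillar chains. The median of the other collagens (-0.02) turned to 0.027 under quantile normalization and loess and 0.028 under median centring. That of the synthesis genes (-0.01) turned to 0.040 under median centring and 0.022 under loess. With the floor as lowest value, receptors had a median of -0.090. The thresholds and floors act by construction, and the cause of the turns was not tested.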

Other observations

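Proteins outside the collagen family also carry a collagen-like stretch, and a list of 23 such genes was written after the data had been seen. Their median difference was -0.12, 12 lay on or above the floor, and 1 of these was at least 1.5-fold lower and 0 higher in the array labelled DKO, where 3.73% of all genes on or above the floor were lower and 7.57% higher. This single call, given as a value, was Scara5, a ferritin receptor of mesenchymal cells, at 359 under the DKO label and 546 under the ApoE-KO label (-0.61). The complement C1q genes, which macrophages make, read 1577 and 2031 (C1qa, -0.36), 978 and 1347 (C1qb, -0.46) and 1466 and 2123 (C1qc, -0.53). All 3 were lower in the array labelled DKO, beside a median of -0.54 for the macrophage markers. Adiponectin (Adipoq), the adipocyte hormone with a collagen-like tail, read 6164 and 6714 (-0.12). Colq, the collagenous tail of acetylcholinesterase at the neuromuscular junction, read 196 and 211 (-0.11). Cthrc1, a secreted protein of activated fibroblasts, lay below the floor at 109 and 110.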
